A study of Arabidopsis thaliana with 8 samples.

Results

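The genes described here encode the enzymes of the Calvin cycle and of photorespiration in leaves of Arabidopsis thaliana, with the proteins that activate or hold back the cycle. They were chosen by function as a list of 34 loci, by a rule that uses no measured value but drawn up with earlier results of these data known: 22 Calvin cycle genes and 12 photorespiration genes, among the 22546 loci listed in the deposited counts. All 34 were found and all passed the filter on low counts. Leaf messenger RNA was compared between wild type (wt) and dcl1, a mutant in the nuclease DICER-LIKE 1 that releases microRNAs from their hairpins. The labels give neither the dcl1 allele nor the age of the leaves or the hour of harvest. All plants received no treatment and grew at 25 °C by day and 18 °C by night with 16 h of light. Each RNA sample was made into a library with high definition (HD) adapters, which end in random bases, and into a library with standard Illumina adapters. The 4 groups (wt HD, wt standard, dcl1 HD, dcl1 standard) held 2 libraries each, so 4 RNA samples gave 8 libraries. The labels do not state that both samples of a genotype came from different plants, and all p-values refer only to the spread among these samples, which could be technical.

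In the Calvin cycle, Rubisco joins CO2 to ribulose-1,5-bisphosphate, the product is reduced to triose phosphate with ATP and NADPH, and a chain of aldolases, phosphatases, transketolase, isomerases and phosphoribulokinase rebuilds the acceptor. Rubisco also takes oxygen in place of CO2, which yields phosphoglycolate. Photorespiration returns its carbon to the cycle through glycolate and glyoxylate in the peroxisome, glycine and serine in the mitochondrion, and glycerate in the chloroplast. In leaves both pathways belong mainly to green mesophyll cells, and many of their genes are known to respond to light and to the time of day.

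Library totals ran from 15772958 to 45929383 counts, of which 4 ribosomal RNA loci took 17.3% to 28.7%, the Calvin cycle genes 3.41% to 4.78% and the photorespiration genes 0.545% to 0.689%. The lowest count of any member in any library was 906, for FBA3, so no member rested on few reads. Among markers of other tissues, the root markers summed to 1.92 to 3.89 CPM (the normalised read count on the CPM scale, with TMM scaling) in wt and 1.85 to 3.16 CPM in dcl1, with BGLU21 and BGLU22 at 0 in every library. DCL1 itself was at 20.2 to 21.3 CPM in wt and 21.2 to 25.7 CPM in dcl1 libraries, which checks no label, since a mutant allele can still be transcribed and the allele is not given. In such bulk RNA, fewer cells of a type and less RNA per cell cannot be told apart.

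Over both adapters 3 of 22 Calvin cycle genes rose in dcl1 and none fell: CP12-2, a small protein that binds and silences other enzymes of the cycle, AT3G62410, 2.09-fold, the transketolase TKL1, AT3G60750, 1.59-fold, and the aldolase FBA1, AT2G21330, 1.46-fold. No photorespiration gene of 12 passed the test. By edgeR's quasi-likelihood test with Benjamini-Hochberg adjustment on the summed HD and standard counts of each RNA sample (2 wt, 2 dcl1), 4.3% of 19711 loci were called higher and 4.55% lower at an adjusted p under 0.05, so the 3 Calvin cycle calls stand beside a background of 4.3%. At an unadjusted p under 0.05, 8 Calvin cycle genes were higher and 0 lower, and 4 photorespiration genes were higher and 1 lower, beside 11.1% of all loci higher and 10.7% lower. DESeq2 called 5 Calvin cycle genes (GAPB, FBA1, CFBP1, TKL1, CP12-2) and 1 photorespiration gene (HPR1), all higher, beside 5.08% of all loci. The log2 difference was positive for 21 of 22 Calvin cycle genes, with a median of 0.21, and for 9 of 12 photorespiration genes, with a median of 0.16, while the median of all loci tested was 0.0070. The 95% interval of a log2 difference reached about 0.29 to either side for the median Calvin cycle gene and 0.30 for the median photorespiration gene, and it included 0 for 14 of 22 and 7 of 12 genes.

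**Figure D1:**
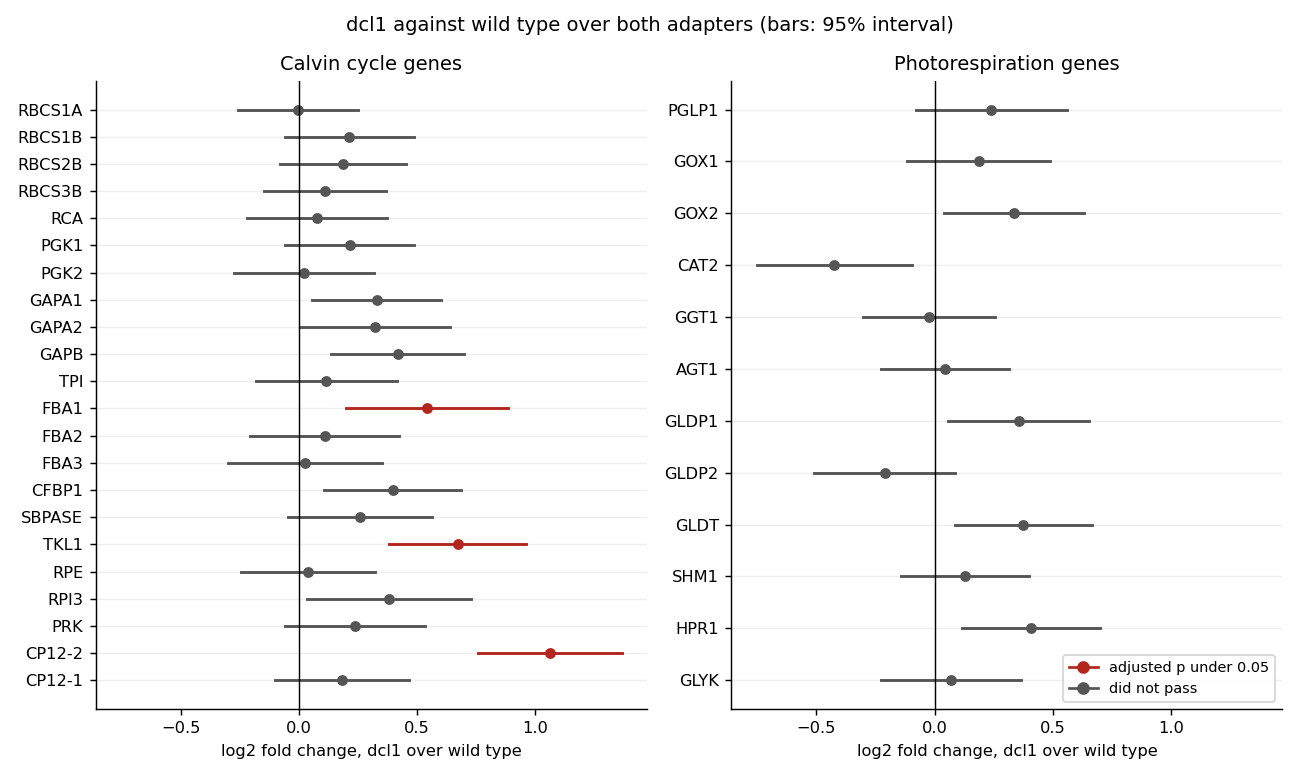
log2 fold change (x axis, dcl1 over wild type) of each of the 22 Calvin cycle genes (left) and 12 photorespiration genes (right) over both adapters, with points for the estimate and bars for the 95% interval, n = 2 RNA samples a genotype. CP12-2, TKL1 and FBA1, in red, passed the test, and RBCS1A and GGT1 lie closest to 0 on the lower side.

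The carboxylation step held the most abundant transcripts. Levels of different genes are compared here per kilobase of the median annotated transcript. In wt RBCS1A (AT1G67090) ranked first of the 34 genes at 8578 CPM per kb, followed by RBCS3B (AT5G38410) at 5724, RBCS2B (AT5G38420) at 4956, RBCS1B (AT5G38430) at 3036 and the Rubisco activase RCA, which clears inhibitory sugars from Rubisco, at 2030 CPM per kb. The 4 RBCS genes, in the nucleus, encode the small subunit of Rubisco, and together they took 52.6% to 57.2% of the CPM of all 34 genes in each library. RBCS3B, RBCS2B and RBCS1B lie side by side on the minus strand of chromosome 5 (chr5:15376988-15385320, TAIR10.1 positions here and below), and RBCS1A is alone on chromosome 1 (chr1:25048158-25049667, minus strand). The 3 neighbours share 14.6% (RBCS3B), 21.4% (RBCS2B) and 13.9% (RBCS1B) of their exonic 50-base words with other loci, so their single values are uncertain, and RBCS1A shares 1.42%.

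RBCS1A measured 9692 and 8911 CPM in the 2 wt HD libraries, 11207 and 9364 CPM in wt standard, 9550 and 10570.1 CPM in dcl1 HD, and 10348 and 9160 CPM in dcl1 standard. The genotypes overlapped with both adapters, and the log2 difference was -0.005 with a 95% interval from -0.26 to 0.25, which corresponds to 0.836-fold to 1.19-fold. RBCS1B (log2 0.21, SE 0.13), RBCS2B (0.18, SE 0.13), RBCS3B (0.11, SE 0.12) and RCA (0.077, SE 0.14) did not pass the test either. With HD adapters alone RBCS1B stood at 3567 and 3284 CPM in wt against 4247 and 4655 CPM in dcl1, a log2 difference of 0.38 (SE 0.12, edgeR adjusted p = 0.0736). With standard adapters wt libraries at 5379 and 4265 CPM enclosed the dcl1 libraries at 5290 and 5180 CPM. The share of RBCS1A in the 4 small subunit genes, taken per length, ran from 33.6% to 40.6% over the libraries, that of RBCS1B from 12.4% to 15.9%, that of RBCS2B from 21.2% to 24.6% and that of RBCS3B from 25.1% to 26.1%. Within each adapter the RBCS1A share was lower, and the RBCS1B and RBCS2B shares higher, in both dcl1 libraries than in both wt libraries. The RBCS3B share overlapped, and these shares carry no test.

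**Figure D2:**
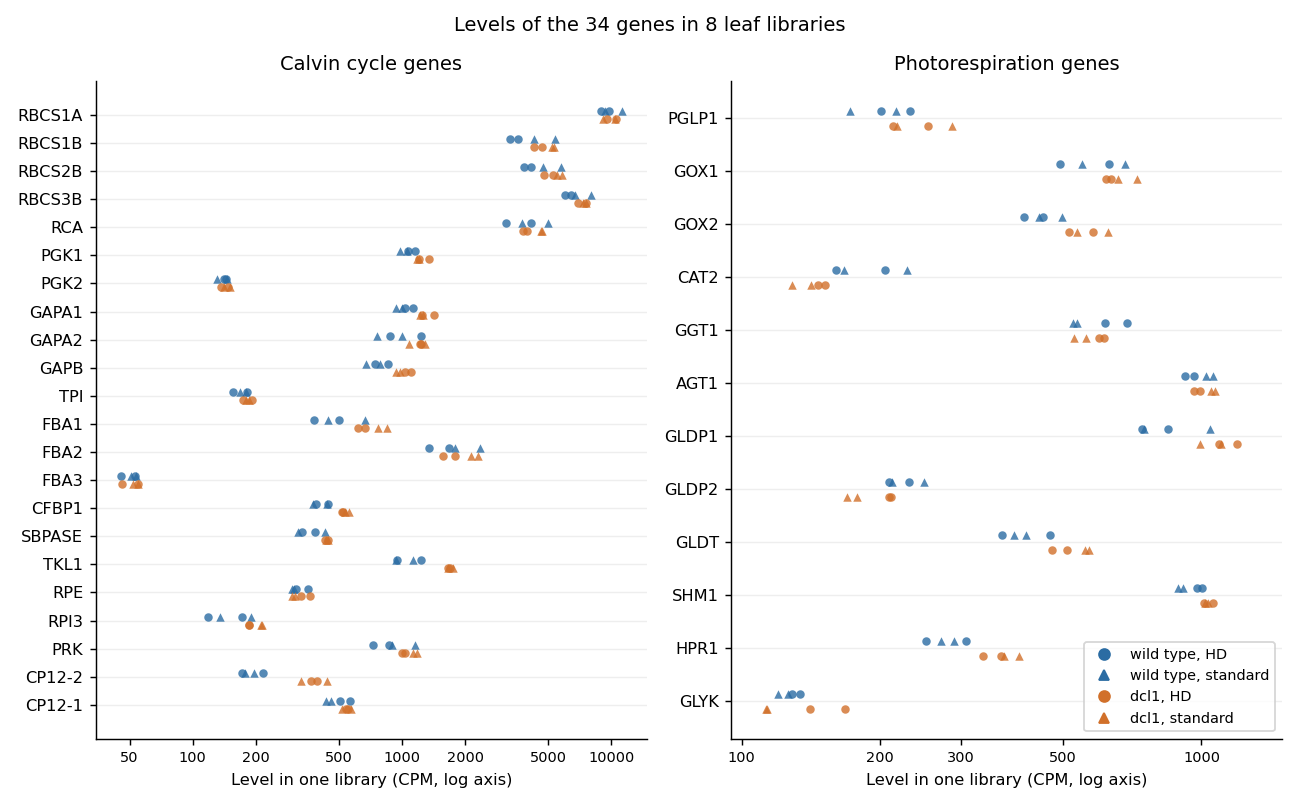
Level in CPM (x axis, log scale) of each Calvin cycle gene (left) and photorespiration gene (right), 1 point per library, blue for wild type, orange for dcl1, circles for HD and triangles for standard adapters. The 4 dcl1 points of CP12-2 and TKL1 lie clear above the 4 wild-type points, those of CAT2 lie below, and RBCS1A holds the highest levels.

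The reduction step was measured at 5 genes and none passed the test. PGK1 and PGK2 encode phosphoglycerate kinases, and GAPA1, GAPA2 and GAPB the subunits of the plastid glyceraldehyde-3-phosphate dehydrogenase that uses NADPH. GAPB (AT1G42970, chr1:16127353-16129895, plus strand) stood at 859 and 746 CPM in wt HD, 785 and 671 CPM in wt standard, 1038 and 1098 CPM in dcl1 HD and 938 and 973 CPM in dcl1 standard. All 4 dcl1 libraries were above all 4 wt libraries, by log2 0.42 (SE 0.13, edgeR adjusted p = 0.063). The A subunit genes had log2 differences of 0.33 for GAPA1 (SE 0.13, edgeR adjusted p = 0.137) and 0.32 for GAPA2 (SE 0.15, edgeR adjusted p = 0.221). GAPA1 libraries did not overlap between genotypes within either adapter, whereas GAPA2 overlapped with HD adapters, at 1228 and 872 CPM in wt and 1235 and 1221 CPM in dcl1. PGK1 differed by log2 0.21 (SE 0.13) and PGK2 by 0.023 (SE 0.14), and PGK1 exceeded PGK2 per kb by 7.25 to 9.19 times in every library.

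Among the genes that rebuild the acceptor, TKL1 stood apart. Transketolase moves short carbon units between sugar phosphates and also feeds erythrose-4-phosphate to the shikimate pathway. TKL1 (AT3G60750, chr3:22453668-22457458, plus strand) measured 1234 and 950 CPM in wt HD, 1124 and 938 CPM in wt standard, 1650 and 1703 CPM in dcl1 HD, and 1757 and 1654 CPM in dcl1 standard. Every dcl1 library was above every wt library, and the 4 dcl1 values lay closer together than the wt values. Over the RNA samples it rose from 1059 ± 159 CPM to 1687 ± 3.11 CPM (SD, n = 2 each), log2 0.67 (SE 0.14, 95% interval 0.38 to 0.96, edgeR adjusted p = 0.00457). The call held within HD (log2 0.62, edgeR adjusted p = 0.00896) and within standard libraries (log2 0.73, edgeR adjusted p = 0.00252), made from the same RNA samples. Without the second wt HD library the HD difference was 0.44 and no longer passed (edgeR adjusted p = 0.138).

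CP12-2 changed most of all 34 genes. CP12 proteins are small disordered linkers that join glyceraldehyde-3-phosphate dehydrogenase to phosphoribulokinase in an inactive complex in the dark and release them in the light. CP12-2 (AT3G62410, chr3:23090944-23091580, plus strand) measured 216 and 171 CPM in wt HD, 196 and 179 CPM in wt standard, 391 and 368 CPM in dcl1 HD, and 328 and 438 CPM in dcl1 standard. The lowest dcl1 library was above the highest wt library. Over the RNA samples it rose from 190.0 ± 20.5 CPM to 396 ± 30.7 CPM (SD, n = 2 each), log2 1.06 (SE 0.15, 95% interval 0.76 to 1.37, edgeR adjusted p = 0.000147). It also rose within HD (log2 0.97, edgeR adjusted p = 0.00079) and within standard libraries (log2 1.03, edgeR adjusted p = 0.000395), made from the same RNA samples. Its relative CP12-1 (AT2G47400, chr2:19446730-19447642) stood at 488 ± 25.1 CPM in wt and 554 ± 24.5 CPM in dcl1 (SD, n = 2 each), log2 0.18 (SE 0.13, edgeR adjusted p = 0.474). Taken per length, the ratio of CP12-2 to CP12-1 was 0.484 to 0.613 in the 4 wt libraries and 0.907 to 1.095 in the 4 dcl1 libraries.

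**Figure D3:**
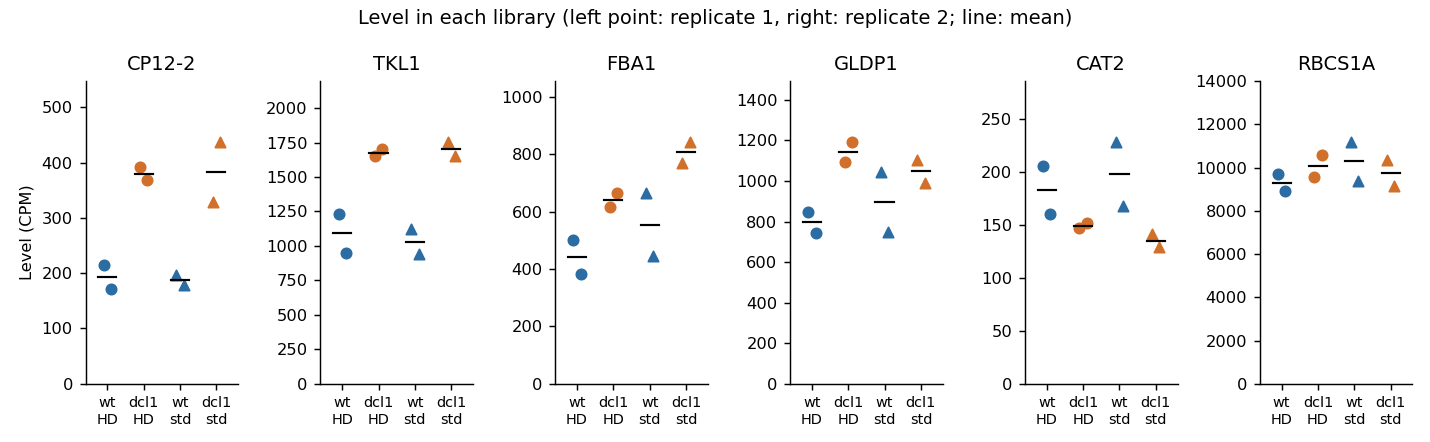
Level in CPM (y axis, from 0) of 6 genes in each library, by genotype and adapter, with replicate 1 as the left and replicate 2 as the right point and a line at their mean. CP12-2 and TKL1 are higher in every dcl1 library, FBA1 and GLDP1 are higher in dcl1 within HD libraries, CAT2 is lower within each adapter, and RBCS1A overlaps.

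The promoters of CP12-2 and TKL1 are shown because these genes had the smallest p-values of the Calvin cycle genes. Each window of 300 bases starts 250 bases before the annotated transcript start and ends with the first 50 transcribed bases, read from the RefSeq TAIR10.1 genome, 5′ to 3′ on the gene's strand. Capitals mark a match to a motif searched on both strands: the I-box GATAAG in CP12-2 (chr3:23090694-23090993, plus strand) and, read on the opposite strand, the evening element AAAATATCT in TKL1 (chr3:22453418-22453717, plus strand).
CP12-2: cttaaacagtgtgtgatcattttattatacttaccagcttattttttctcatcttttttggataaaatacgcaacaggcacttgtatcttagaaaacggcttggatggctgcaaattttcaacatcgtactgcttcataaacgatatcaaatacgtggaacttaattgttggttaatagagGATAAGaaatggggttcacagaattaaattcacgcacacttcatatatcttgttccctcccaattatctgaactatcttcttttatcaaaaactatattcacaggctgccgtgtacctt
TKL1: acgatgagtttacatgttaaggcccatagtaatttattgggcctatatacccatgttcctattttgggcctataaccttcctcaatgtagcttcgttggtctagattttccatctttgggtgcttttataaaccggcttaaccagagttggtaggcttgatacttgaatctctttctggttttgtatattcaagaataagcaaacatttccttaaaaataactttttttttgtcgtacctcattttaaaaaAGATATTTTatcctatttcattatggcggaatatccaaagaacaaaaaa
The I-box, a motif known from light-regulated genes, begins 69 bases before the CP12-2 start. It was present in 6 of 22 Calvin cycle promoters (RBCS1B, RBCS2B, RCA, GAPB, CFBP1, CP12-2), in 2 of 12 photorespiration promoters (AGT1, GLDP2) and in 14.6% of 27443 promoters of the same length. The evening element, known from clock-controlled genes, begins 1 base after the first transcribed base of TKL1, the only match among the 34 genes, and was present in 2.82% of all promoters. The G-box CACGTG, bound by light signalling factors, was present in 4 Calvin cycle promoters (RBCS2B, CFBP1, PRK, CP12-1), 2 photorespiration promoters (GGT1, GLDP1) and 7.68% of all promoters. None of the 3 motifs holds another, and a match describes the sequence only.

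Of the 3 plastid aldolases, which join triose phosphates into larger sugars, FBA1 rose and the others did not pass the test. FBA1 (AT2G21330, chr2:9128122-9130619, minus strand) measured 503 and 381 CPM in wt HD, 664 and 445 CPM in wt standard, 618 and 665 CPM in dcl1 HD and 770 and 844 CPM in dcl1 standard. The genotypes did not overlap within either adapter, but the first wt standard library was level with the dcl1 HD libraries. Over the RNA samples it went from 499.99 ± 120 CPM to 728 ± 89.0 CPM (SD, n = 2 each), log2 0.54 (SE 0.16, 95% interval 0.20 to 0.88, edgeR adjusted p = 0.0461). This call lies at the threshold: it ended with DESeq2's size factors (adjusted p = 0.0603), with a filter of 1 CPM in 2 libraries (0.0503), without the ribosomal RNA loci (0.0554), without the second wt sample (log2 0.30, adjusted p = 0.314) and without the second dcl1 sample (log2 0.41, adjusted p = 0.247), all edgeR. FBA2, the aldolase with the highest level at 1107 CPM per kb in wt against 305 for FBA1 and 27.8 for FBA3, differed by log2 0.11 (SE 0.15), and FBA3 by 0.025 (SE 0.15). The ratio of FBA1 to FBA2 per length was 0.247 to 0.297 in wt libraries and 0.360 to 0.392 in dcl1 libraries.

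The remaining genes of regeneration did not pass the test. CFBP1 (AT3G54050), the plastid fructose-1,6-bisphosphatase, stood at 442 and 388 CPM in wt HD, 437 and 375 CPM in wt standard, 524 and 515 CPM in dcl1 HD and 535 and 560 CPM in dcl1 standard, log2 0.40 (SE 0.14, edgeR adjusted p = 0.0864). SBPASE, the phosphatase of the sedoheptulose branch, had a log2 difference of 0.26 (SE 0.14) and its dcl1 libraries, at 429 to 442 CPM, were above the wt libraries of the same adapter. The ribose-5-phosphate isomerase RPI3 differed by log2 0.38 (SE 0.16, edgeR adjusted p = 0.178), with 19.7% of its 50-base words shared with the locus AT3G01505. Phosphoribulokinase, PRK, which makes the acceptor and is the partner held by CP12, differed by log2 0.24 (SE 0.14). The triose phosphate isomerase TPI (0.12, SE 0.14) and the epimerase RPE (0.038, SE 0.14) lay close to 0. The ratio of TKL1 to SBPASE per length was 1.57 to 1.93 in wt libraries and 2.29 to 2.38 in dcl1 libraries.

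None of the 12 photorespiration genes passed the test over both adapters, beside 4.3% of loci called higher and 4.55% lower. Per kilobase in wt they ran from 526 CPM for AGT1 and 474 CPM for SHM1 down to 56.9 CPM for GLDP2, with a median of 237 CPM per kb against 448 CPM per kb for the Calvin cycle genes. The wt samples of AGT1 (535 and 517 CPM per kb) and SHM1 (467 and 481 CPM per kb) did not overlap, so the order of these neighbours held in both samples. The first steps are the phosphatase PGLP1, the glycolate oxidases GOX1 and GOX2 and the catalase CAT2, which removes the peroxide that glycolate oxidase makes. GOX2 (AT3G14415) measured 452 and 411 CPM in wt HD, 498 and 443 CPM in wt standard, 515 and 580 CPM in dcl1 HD and 535 and 625 CPM in dcl1 standard. Every dcl1 library was above every wt library, with log2 0.33 (SE 0.14, edgeR adjusted p = 0.165). GOX1, which lies next to GOX2 on chromosome 3 (chr3:4818251-4824178 for both, plus strand), overlapped between genotypes and differed by log2 0.19 (SE 0.14). PGLP1 differed by 0.24 (SE 0.15), but it had the same count as its copy AT5G36790 in all 8 libraries, so the counts do not resolve the copies. How reads shared by both copies were counted is not known, so the level of PGLP1 is uncertain.

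CAT2 went the other way. It (AT4G35090) measured 205 and 160 CPM in wt HD, 228 and 167 CPM in wt standard, 147 and 151 CPM in dcl1 HD and 141 and 129 CPM in dcl1 standard (chr4:16700312-16703504, minus strand). Every dcl1 library was below every wt library, with log2 -0.43 (SE 0.16, 95% interval -0.75 to -0.10, edgeR adjusted p = 0.105). The difference passed the test without the second wt sample (log2 -0.62, edgeR adjusted p = 0.0085) and shrank to -0.21 (edgeR adjusted p = 0.594) without the first wt sample, so it depended on which wt sample was used. CAT3, a catalase with a far higher count and named here after its values were seen, fell from 4170.2 ± 49.2 CPM to 3128 ± 163 CPM (SD, n = 2 each), log2 -0.42 (SE 0.12, edgeR adjusted p = 0.0433).

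In the aminotransferase step GGT1 (log2 -0.024, SE 0.13), which makes glycine from glyoxylate and glutamate, and AGT1 (0.044, SE 0.13), which uses serine, had intervals of -0.30 to 0.26 and -0.23 to 0.32. Glycine decarboxylase splits glycine in the mitochondrion, and its P protein, which binds glycine, is encoded by GLDP1 and GLDP2. GLDP1 (AT4G33010, chr4:15926652-15931422, minus strand) measured 847 and 743 CPM in wt HD, 1042 and 750 CPM in wt standard, 1092 and 1194 CPM in dcl1 HD and 1105 and 991 CPM in dcl1 standard. The genotypes were apart with HD adapters and overlapped with standard adapters. With HD adapters GLDP1 rose, log2 0.52 (SE 0.15, edgeR adjusted p = 0.0434), the only photorespiration gene called there, beside 2.07% of 19521 loci called higher. With standard adapters it differed by 0.23 (SE 0.15, edgeR adjusted p = 0.509), and the difference between the adapters was not called (log2 0.30, SE 0.21, edgeR adjusted p = 0.9999). The HD call ended with a filter of 1 CPM in 2 libraries (edgeR adjusted p = 0.0517), without the second wt HD library (log2 0.43, edgeR adjusted p = 0.225), and without the first (0.60, edgeR adjusted p = 0.0554) or the second dcl1 HD library (0.47, edgeR adjusted p = 0.235). GLDP2 differed over both adapters by log2 -0.21 (SE 0.14), and the ratio of GLDP1 to GLDP2 per length was 3.97 to 4.70 in wt libraries and 5.87 to 7.32 in dcl1 libraries.

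**Figure D4:**
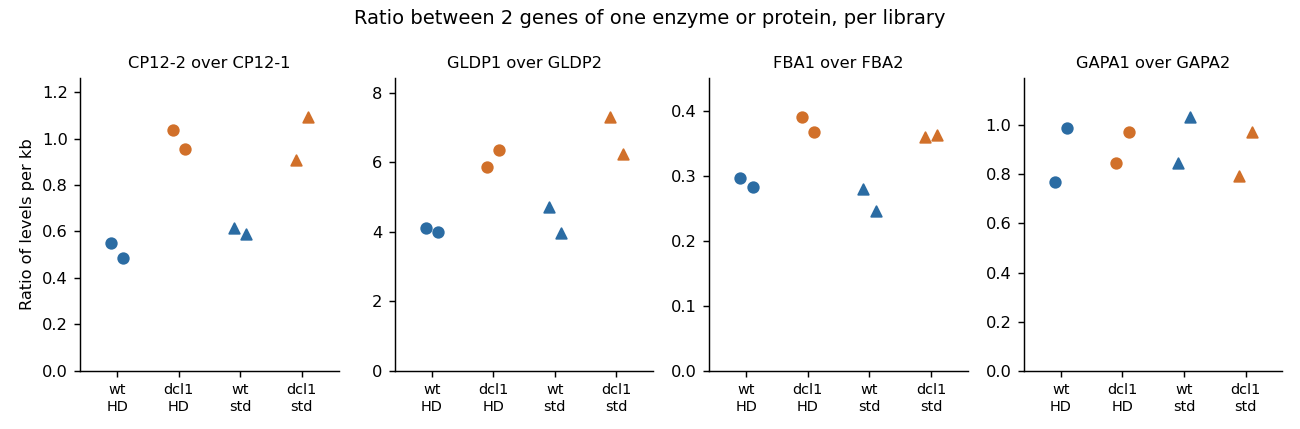
Ratio of the levels per kilobase (y axis, from 0) of 2 genes that encode the same enzyme or protein, 1 point per library, blue for wild type, orange for dcl1, circles for HD and triangles for standard adapters. The dcl1 libraries lie above all wild-type libraries for CP12-2 over CP12-1 (0.907 to 1.095 against 0.484 to 0.613), GLDP1 over GLDP2 and FBA1 over FBA2, and overlap for GAPA1 over GAPA2.

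Of the other pairs, GOX1 over GOX2 was 1.33 to 1.55 in wt and 1.19 to 1.37 in dcl1 libraries. RBCS1B over RBCS1A was 0.308 to 0.401 in wt and 0.368 to 0.473 in dcl1, and both pairs overlapped across the libraries. PGK1 over PGK2 was 7.25 to 8.04 in wt and 8.05 to 9.19 in dcl1. All these ratios were computed after the folds were known and carry no test. With 2 RNA samples against 2, an exact two-sided permutation test cannot go below p = 0.333.

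The later steps of photorespiration include GLDT, the T protein of glycine decarboxylase, SHM1, which joins the remaining carbon to a further glycine to give serine, HPR1, which reduces hydroxypyruvate to glycerate, and GLYK, which phosphorylates it. HPR1 (AT1G68010) measured 307 and 251 CPM in wt HD, 290 and 271 CPM in wt standard, 367 and 336 CPM in dcl1 HD and 401 and 371 CPM in dcl1 standard (chr1:25493193-25496053, plus strand). Every dcl1 library was above every wt library, with log2 0.41 (SE 0.14, 95% interval 0.11 to 0.70, edgeR adjusted p = 0.0807, DESeq2 adjusted p = 0.03). GLDT (AT1G11860) measured 468 and 369 CPM in wt HD, 416 and 392 CPM in wt standard, 511 and 474 CPM in dcl1 HD and 569 and 558 CPM in dcl1 standard (chr1:4001113-4003748, plus strand). Every dcl1 library was again above every wt library, with log2 0.38 (SE 0.14, edgeR adjusted p = 0.104). SHM1 differed by 0.13 (SE 0.13). GLYK (AT1G80380), the last enzyme, was at 129 and 134 CPM in wt HD against 141 and 168 CPM in dcl1 HD, and at 126 and 120 CPM in wt standard against 113 CPM in both dcl1 standard libraries. Its genotypes were thus apart in opposite directions with the 2 adapters, and the difference between the adapters was not called (log2 0.35, SE 0.22, edgeR adjusted p = 0.9999).

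The promoters of HPR1 (chr1:25492943-25493242, plus strand) and GLDT (chr1:4000863-4001162, plus strand) are shown because these genes had the smallest p-values of the photorespiration genes, in the same windows and from the same source. None of the 3 motifs occurs in these windows, so no letter is in capitals.
HPR1: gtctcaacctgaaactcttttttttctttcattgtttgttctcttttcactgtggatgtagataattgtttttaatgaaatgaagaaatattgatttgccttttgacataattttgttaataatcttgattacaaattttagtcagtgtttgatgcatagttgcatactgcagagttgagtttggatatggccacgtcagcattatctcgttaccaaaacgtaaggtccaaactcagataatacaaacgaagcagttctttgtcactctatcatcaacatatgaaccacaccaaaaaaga
GLDT: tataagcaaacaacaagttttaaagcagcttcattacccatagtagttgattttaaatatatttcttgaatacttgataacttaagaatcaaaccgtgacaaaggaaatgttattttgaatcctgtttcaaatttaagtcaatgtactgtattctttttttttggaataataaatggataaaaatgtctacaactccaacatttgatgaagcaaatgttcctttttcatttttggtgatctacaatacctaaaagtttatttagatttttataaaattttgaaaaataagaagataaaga

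With HD adapters TKL1 and CP12-2 were called higher among the Calvin cycle genes, beside 2.07% of loci called higher and 2.26% lower. With standard adapters the same 2 Calvin cycle genes were called higher, beside 1.87% of loci called higher and 2.36% lower, and 0 photorespiration genes were called by edgeR, where DESeq2 called 3 (GLDT and HPR1 higher, CAT2 lower) and 4 were higher and 2 lower at an unadjusted p under 0.05. Over all loci DESeq2 called 2.89% higher and 3.63% lower there, and 7.58% were higher and 8.41% lower at an unadjusted p under 0.05. The dcl1 libraries lay wholly above the wt libraries within each adapter for 9 Calvin cycle genes (PGK1, GAPA1, GAPB, FBA1, CFBP1, SBPASE, TKL1, RPI3, CP12-2) and 4 photorespiration genes (GOX2, GLDT, SHM1, HPR1), and wholly below for CAT2. Over all 19521 loci such separation was seen for 10.7% upward and 11.2% downward. The difference between the genotype effects with HD and with standard adapters was called at 5 loci (0.0256%), and 0 members were among them in edgeR. DESeq2 also called 0 members, and 0 reached an unadjusted p under 0.05. That fit ignores that an HD and a standard library share an RNA sample. With the RNA sample as a term, an alternative added after the data were seen, 36 loci (0.184%) were called and again 0 members. At an unadjusted p under 0.05 that fit had 7 of 34 members, beside 5.29% of loci: the 4 RBCS genes (log2 0.19 to 0.25, where a positive value is a higher dcl1 to wt ratio with HD), GLDP1 (0.28), GLDP2 (0.34) and CP12-1 (-0.26).

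The kind of adapter moved some of these transcripts as well. HD libraries held less FBA2 than standard libraries in both genotypes, at 1684 and 1342 CPM against 2365 and 1798 CPM in wt and at 1570 and 1797 CPM against 2130 and 2316 CPM in dcl1. The difference was log2 -0.43 (SE 0.098, edgeR adjusted p = 0.0479), with 0.0666% of loci called lower with HD and 0.492% in either direction. When the RNA sample, shared by an HD and a standard library, was a term of the model, 6 Calvin cycle genes were called lower with HD by edgeR: RBCS1B (-0.36), RBCS2B (-0.28), RCA (-0.27), FBA1 (-0.32), FBA2 (-0.43) and PRK (-0.27), beside 0.43% of all loci lower in that fit. Of the photorespiration genes 0 were called in either fit or by DESeq2, with 2 higher at an unadjusted p under 0.05 in edgeR without that term, beside 4.45% of all loci.

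The spread within wt was not even. The first wt RNA sample was above the second for 21 of 22 Calvin cycle genes and 10 of 12 photorespiration genes, by a median log2 of 0.21 and 0.18, while the median of all loci was -0.0036. This held with both adapters for 20 and 9 genes. Between the dcl1 samples the medians were -0.062 and 0.025. The gap between the wt samples was thus close to the median difference between genotypes. It was not particular to these genes and was also seen in the related lists described below. Without the first wt sample 7 Calvin cycle genes (GAPA2, GAPB, FBA1, CFBP1, TKL1, RPI3, CP12-2) and 2 photorespiration genes (GLDP1, HPR1) were called higher by edgeR, beside 5.21% of all loci. Without the second wt sample TKL1 and CP12-2 were called higher and CAT2 lower, beside 3.46% and 4.25% of all loci. The total level of the photorespiration genes was 5509 to 6223 CPM in wt and 6463 to 6621 CPM in dcl1 libraries. The total of all 22 Calvin cycle genes was 34432 to 46874 CPM in wt and 41619 to 46858 CPM in dcl1 libraries, and the genotypes overlapped with standard adapters. Without the 4 small subunits it was 12404 to 16528 CPM in wt and 16095 to 17960 CPM in dcl1, which overlapped across adapters.

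Genes around the 2 pathways were counted from lists of their own. In these lists too the first wt sample was mostly above the second. This was so for 20 of 24 genes of regulation and assembly (median log2 0.15) and 13 of 13 of triose use (0.17). It was also so for 17 of 22 further photorespiration genes (0.094) and 41 of 43 light reaction genes (0.17). Except in the further photorespiration genes, these gaps were close in size to the median genotype differences given below. In regulation of the cycle and assembly of Rubisco, 5 of 24 genes rose and 0 fell, with a median log2 of 0.18, beside 4.3% of all loci called higher and 4.55% lower. They include the plastid chaperonin subunits that fold the large subunit of Rubisco: CPN60B1 rose by log2 0.87 (SE 0.15, edgeR adjusted p = 0.000904), CPN60A1 by 0.81 (SE 0.14, edgeR adjusted p = 0.00154) and CPN60B2 by 0.78 (SE 0.18, edgeR adjusted p = 0.00992). In the samples CPN60A1 stood at 159 and 138 CPM in wt and at 249 and 271 CPM in dcl1. The carbonic anhydrase BCA2, named after its values were seen, rose by 0.59 (SE 0.14, edgeR adjusted p = 0.0105). In the use of triose phosphates for sucrose and starch, 3 of 13 genes rose and 0 fell (4.3% and 4.55% of all loci), with a median of 0.18: the sucrose phosphate synthase SPSC (log2 1.09, SE 0.22), the plastid phosphoglucomutase PGM1 (0.73, SE 0.17) and the cytosolic fructose-1,6-bisphosphatase (0.63, SE 0.14).

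Among 23 further genes of photorespiration, 22 were tested, 4 rose and 1 fell, with a median log2 of 0.20, beside 4.3% of all loci higher and 4.55% lower. GGT2, a relative of GGT1, rose by 0.85 (SE 0.17, edgeR adjusted p = 0.00307), from 28.7 and 23.5 CPM in the wt samples to 50.4 and 43.5 CPM in the dcl1 samples. The L protein of glycine decarboxylase mLPD1 rose by 0.59 (SE 0.15) and the plastid glycolate and glycerate transporter PLGG1 by 0.54 (SE 0.14). GLDH1, the H protein of the same complex and named after its values were seen, rose by 0.51 (SE 0.14, edgeR adjusted p = 0.0357), and CAT3 was the gene that fell. Genes of the light reactions, whose products supply the ATP and NADPH for the cycle, had a negative log2 difference in 33 of 43 cases with a median of -0.17, against 9739 of 19711 loci overall. In that list 2 genes fell and 0 rose over both adapters, LHCB2.3 (log2 -0.74, SE 0.16) and PSAF (-0.49, SE 0.13), a share near the 4.55% of all loci called lower. With HD adapters 3 of the 43 were called lower, beside 2.26% of all loci. With standard adapters 5 were called lower, beside 2.36%, and 0 were called higher with either adapter. At an unadjusted p under 0.05 in edgeR over both adapters 12 were lower and 1 higher, beside 10.7% and 11.1% of all loci. The dcl1 libraries lay wholly below the wt libraries within each adapter for 23 of the 43, beside 11.2% of all loci. They lay wholly above for 4, beside 10.7% of all loci.

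**Figure D5:**
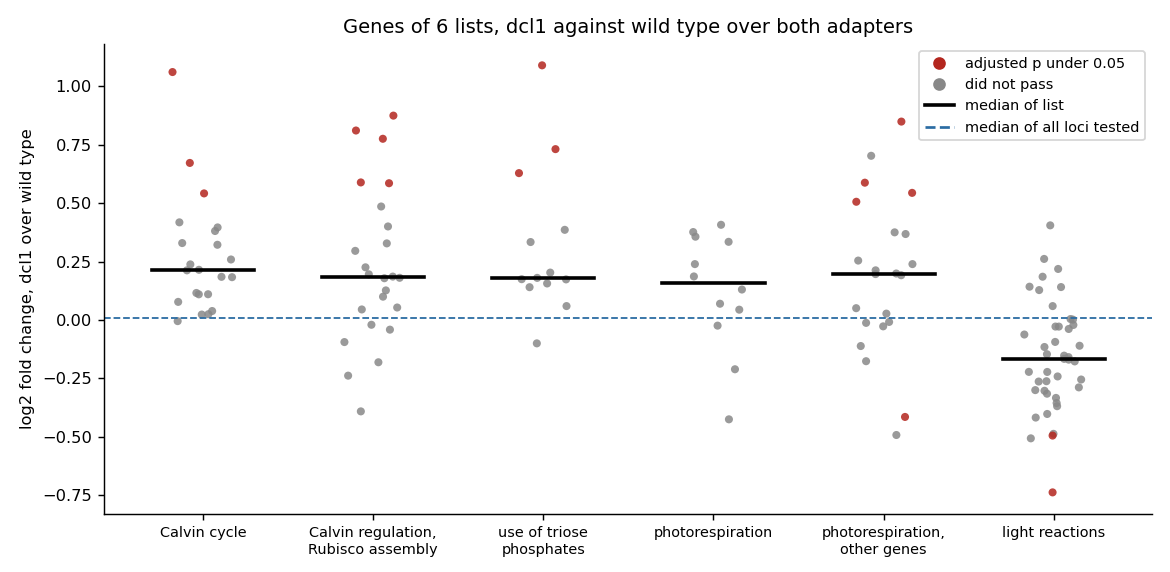
log2 fold change over both adapters (y axis, dcl1 over wild type), 1 point per gene of 6 lists, with red for an adjusted p under 0.05, a black bar at the median of the list and a dashed line at the median of all loci tested (0.0070). The medians of the Calvin cycle, regulation, triose use and both photorespiration lists lie between 0.16 and 0.21, and that of the light reactions at -0.17. In all 6 lists the first wild-type sample was above the second for most genes.

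Clock genes, senescence markers and markers of other cell types were summed in each library, and their part in these results was not tested. The 10 clock genes summed to 540 to 558 CPM in wt and 585 to 660 CPM in dcl1 libraries. Singly, 4 had a positive and 6 a negative log2 difference over both adapters, with a median of -0.096. With HD adapters 6 were positive (median 0.24) and with standard adapters 4 (median -0.030). Over both adapters 3 were higher and 1 lower at an unadjusted p under 0.05 in edgeR, beside 11.1% and 10.7% of all loci. The only clock gene called was ELF4, of the evening complex, beside 4.3% of all loci called higher. It rose by log2 1.27 (SE 0.17, edgeR adjusted p = 0.000103). LHY, a morning gene, was at 1.66 to 3.71 CPM in wt and 0.0921 to 1.53 CPM in dcl1 libraries (log2 -1.94, SE 0.70, edgeR adjusted p = 0.102). Of 8 senescence and starvation markers SAG12 was at 0 and 5 of 7 tested fell, beside 4.55% of all loci, with sums of 1741 to 2147 CPM in wt and 766 to 1177 CPM in dcl1 libraries, and SEN1, a gene induced by darkness, fell (log2 -3.73, SE 0.22, edgeR adjusted p = 2.29e-08). Guard cell markers summed to 43.9 to 57.0 CPM and 37.3 to 48.7 CPM, and of 5 genes 2 had a positive difference. Of these 5 genes 1 was called, MYB60, which fell (log2 -1.02, edgeR adjusted p = 0.0382), beside 4.55% of all loci called lower. Within HD and within standard adapters 0 guard cell markers were called. Epidermis markers summed to 704 to 746 CPM and 730 to 909 CPM, and of 5 genes 3 had a positive difference, with a median of 0.0066. Of these 5 genes 1 was called, PDF1, which fell (log2 -2.50, edgeR adjusted p = 0.000474), beside the same 4.55% of all loci. Phloem markers summed to 282 to 412 CPM and 358 to 417 CPM, with 4 of 5 positive and 0 called by edgeR or at an unadjusted p under 0.05. Flower and seed markers summed to 0.10 to 1.58 CPM and 0 to 0.485 CPM with AP1, CRC and OLEO1 at 0, and markers of dividing cells to 0.468 to 1.402 CPM and 0.423 to 1.52 CPM with KNAT1, WOX5 and WUS at 0.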

How the data were processed

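The authors deposited whole-number read counts for loci of TAIR10, the build in the submitters' processing notes. Loci absent from a file were set to 0. Aligner, counter, strandedness and multi-mapping were not given in the sources used here. Messenger RNA was isolated with magnetic beads from total RNA, per the labels' protocols. Identifiers were matched to the TAIR10.1 annotation (22444 of 22546 loci), which has the nuclear chromosomes of TAIR10, and levels per length use the median length of the annotated transcripts. Groups came from the genotype and adapter in the labels.

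Tests used edgeR 4.0.16 (R 4.3.3) with filterByExpr, TMM scaling and the two-sided quasi-likelihood F test. The Benjamini-Hochberg adjustment ran over all loci tested, and an adjusted p under 0.05 was a call. The genotype effect over both adapters used, for each RNA sample, the summed counts of its HD and standard libraries. The effects within each adapter and their difference came from a model with 4 group means on all 8 libraries, and the adapter effect from a model with genotype and adapter. Both models treat the 2 libraries of an RNA sample as independent. Results with HD and with standard adapters are therefore not independent of each other. The standard error is the log2 fold change divided by the root of F, and 95% intervals use the moderated degrees of freedom. In counts simulated with the mean levels and depths of these libraries, the test over both adapters recovered 95% of changes of log2 1 and 100% of log2 2. The test with HD adapters recovered 67% and 99%, and that with standard adapters 51% and 100%. The simulated spread was below the common biological coefficient of variation of these data, 0.38. All 8 libraries were drawn independently, although an HD and a standard library share RNA. Loci of low level were left unchanged. These rates therefore check the code and do not measure the power of the tests here. DESeq2 1.42.0, other scalings and filters, left-out samples and a replicate block were alternatives.

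The HD and standard libraries with the same genotype and number come from the same RNA, per the design text. At 964 loci of at least 100 CPM the differences between replicates correlated between the adapters at 0.69 in wt and 0.39 in dcl1, over loci that share libraries and depth. Across genotypes the numbers were not linked by any label (correlations of -0.05 to 0.05).

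The 34 genes and the other lists were chosen with earlier results of these data known. Of the other lists, up to 3 genes with the smallest p over both adapters were named, and any other gene is marked where it appears. The values of 1 gene that was called are not reported here. Promoters are shown for the 2 genes of each pathway with the smallest p, and a word is shared where the same 50 bases occur in the exons of another locus on either strand.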

Additional observations from a re-analysis of the deposited data

How the results depend on the processing

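Over both adapters the calls of CP12-2 and TKL1 held in all 12 settings run, and that of FBA1 in 7. The number of Calvin cycle genes called went from 3 to 5 with DESeq2 and 6 with all 8 libraries and adapter as a term, and ran from 2 to 7 when each sample was left out in turn. The number of photorespiration genes went from 0 to 1 with DESeq2, 1 without a filter and 5 with all 8 libraries, and from 0 to 2 with a sample left out. With HD adapters all loci called went from 846 to 1332 without a filter (461 to 1089 with a library left out), Calvin cycle genes from 2 to 4 with DESeq2 and 4 without a filter (1 to 4 with a library left out), and photorespiration genes from 1 to 0 with a filter of 1 CPM in 2 libraries (0 to 1). With standard adapters all loci went from 826 to 1247 with DESeq2 (418 to 996), Calvin cycle genes from 2 to 5 with DESeq2 and 4 without a filter (2 to 4), and photorespiration genes from 0 to 3 with DESeq2 and 2 without a filter (0 to 1). The interaction, at 5 loci, gave 3 with DESeq2's size factors, 3 at 1 CPM, 3 without ribosomal RNA loci and 16 without a filter (3 to 13). The adapter effect, at 96 loci, gave 179 with DESeq2 and 190 without a filter (71 to 103), and its 1 Calvin cycle gene became 0 with DESeq2's size factors and at 1 CPM, and 2 with DESeq2, without ribosomal RNA loci and without a filter (0 to 2). The setting with all 8 libraries and adapter as a term counts the HD and the standard library of the same RNA sample as independent, which they are not. The cause of these shifts was not tested.

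With the replicate number as a block, a number that the wt and dcl1 samples share without being paired, 5 Calvin cycle genes were called with HD and 5 with standard adapters, and 3 photorespiration genes with standard adapters. Over both adapters the block left the Calvin cycle calls at 3, the same genes. With the RNA sample as a block, where the pairing is real, the adapter effect was called at 232 loci, 6 of them Calvin cycle genes, and the interaction at 36 loci, a fit added after the data were seen.

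The sign turned for genes with differences close to 0: RBCS1A was 0.018 with all 8 libraries and -0.11 to 0.095 with a sample left out, and with a sample left out RCA ran from -0.12 to 0.29, PGK2 from -0.033 to 0.070, FBA2 from -0.074 to 0.31, FBA3 from -0.089 to 0.13, RPE from -0.0089 to 0.075, GGT1 from -0.082 to 0.029 and AGT1 from -0.00027 to 0.084. RBCS1B with standard adapters ran from -0.038 to 0.30.

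With 2 RNA samples a genotype, the median 95% interval of single Calvin cycle genes reached about 0.29 on the log2 scale to either side. That interval is not adjusted for the number of loci and is not the limit of a call. Over both adapters the smallest Calvin cycle difference called was 0.54, for FBA1. GAPB at 0.42 was not called (edgeR adjusted p = 0.063). A left-out sample leaves a lone sample, which is assumed to vary like the others. The counts do not resolve PGLP1 from its copy.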
